A study of Drosophila melanogaster with 18 samples.

Results

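The response of Drosophila melanogaster neurons to RNA interference (RNAi) against shep was compared between pupae and larvae. The question was which genes respond differently at the 2 stages, and whether such differences follow how strongly each gene is expressed at each stage. The comparison used the 12 neuron libraries of a series of 18, namely 3 each of pupal shep RNAi, pupal control, larval shep RNAi and larval control neurons. Of 17402 genes in the count table, 8784 passed the filter on low counts and were tested, and 2511 had no count in any neuron library. For every tested gene the larval response (log2 of shep RNAi over control) was subtracted from the pupal response. A positive difference thus means a more positive, and a negative one a more negative, response in pupae.

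All 4 groups carried elav-driven Dcr-2, which strengthens RNAi, and elav-driven mCD8::GFP, a membrane label by which live neurons were sorted. The RNAi groups also carried a shep RNAi transgene under elav, a driver active in neurons. Pupae were at stage P14 and larvae in the third instar, and flies were kept at 25 °C. The labels do not say how many animals made up a library or whether replicates were separate crosses, so the tests measure the spread between libraries, which may be technical.

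The product of shep (alan shepard) binds RNA and also modulates chromatin insulators, the elements that partition regulatory domains. Many larval neurons are still growing and differentiating, and in pupae neurons are remodelled and build the synaptic machinery of the adult brain. Growth of a neuron leans on ribosome production, whereas synaptic transmission leans on transmitter synthesis, vesicle loading and membrane fusion.

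Library totals ran from 7392299 to 12910603 counts. The main axis of variation (93.2% of the variance) split the libraries by stage, and 83.3% of tested genes differed between pupal and larval control neurons at an edgeR adjusted p under 0.05. The neuronal gene elav was high in every library (992 CPM or more, where CPM is counts scaled to a common library size of 1e+06 with TMM factors), and Dcr-2 lay at 1017 CPM or more. Glial markers did not move one way with stage: repo was at 0.176 to 1.28 CPM in pupal and at 6.17 to 11.3 CPM in larval libraries. All 16 matched glial markers, of which 12 were tested, summed to 658 to 955 CPM in pupal and 199.5 to 253 CPM in larval libraries. The larval libraries held the neuroblast genes ase, dpn and wor at 22.2 CPM or more. These genes were at 1.1 CPM or less in pupae, but other neuroblast markers were not so low there. In pupal libraries mira was at 4.99 to 7.69 CPM and brat at 306 to 570 CPM. Of 15 tested neuroblast markers, 14 were lower and 1 was higher in pupal than in larval controls.

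The targeted gene was lowered at both stages, and by less in pupae. shep (FBgn0052423, arm 3L from 5155821 to 5277944 of dm6) had 1148, 908 and 923 CPM in pupal RNAi libraries, against 1665, 2012 and 1956 CPM in pupal controls. It had 505, 458 and 488 CPM in larval RNAi libraries, against 1200.0, 1333 and 1402 CPM in larval controls. RNAi and control groups did not overlap at either stage. The level fell by 47.1% in pupae (log2 -0.92, SE 0.10) and fell by 63.1% in larvae (log2 -1.44, SE 0.11). The difference of 0.52 (SE 0.15, 95% interval 0.22 to 0.82) did not pass after correction over all genes (edgeR adjusted p = 0.141). daw, which encodes an activin-type ligand, had 48.5 ± 7.93 CPM in pupal RNAi and 0.276 ± 0.362 CPM in pupal control neurons (SD, n = 3 each), and 71.1 ± 3.24 CPM in larval RNAi and 0.165 ± 0.0621 CPM in larval control neurons. With counts of 0 to 5 in the controls of both stages its difference was imprecise and did not pass (-1.33, SE 0.88, edgeR adjusted p = 0.633).

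The response to shep RNAi differed between stages for few genes. Among them were ChAT, VGlut and Rop of synaptic transmission and 7 ribosomal protein genes, all more negative in pupae. The actin regulator genes sn and sals were more positive in pupae, with low larval levels of sals. In all, 32 genes were called at an edgeR adjusted p under 0.05, which is 0.364% of those tested. The pupal response was more negative for 23 (0.262%) and more positive for 9 (0.102%). At an unadjusted p under 0.05 the numbers were 471 (5.36%) and 446 (5.08%). The 23 were ChAT, VGlut, Rop, EndoB, fwe, VhaSFD, VhaAC45RP, Serinc, Sec71, flw, eIF3i, RpL5, RpL8, RpL17, RpL28, RpL37A, RpL41, RpS21, GC2, CG2812, CG6280, CG6330 and CG43367. The 9 were sals, sn, bnb, BckdhB, Drep3, GM130, CG15725, CG34377 and CG42232.

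The stage differences came mostly from pupal responses with little counterpart in larvae. Of the 32 genes, 29 were also called in the pupal comparison alone, in which 7.65% of all tested genes were called, and 2 in the larval one, in which 0.364% were called. The absolute response was larger in pupae for 30 of them, the exceptions being CG2812 and Drep3. Pupal RNAi and control libraries did not overlap for 30 of the 32 (24.5% of all tested genes), and larval ones for 11 (15.5% of all tested genes). The 32 genes were chosen by a test on these same libraries, so such counts describe them and are not independent evidence. The fitted responses had opposite signs at the 2 stages for 17 genes, although only CG2812 and Drep3 had a larval response past the threshold. Since every fold here uses a control of its own stage, pupal and larval responses share no library.

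**Figure D1:**
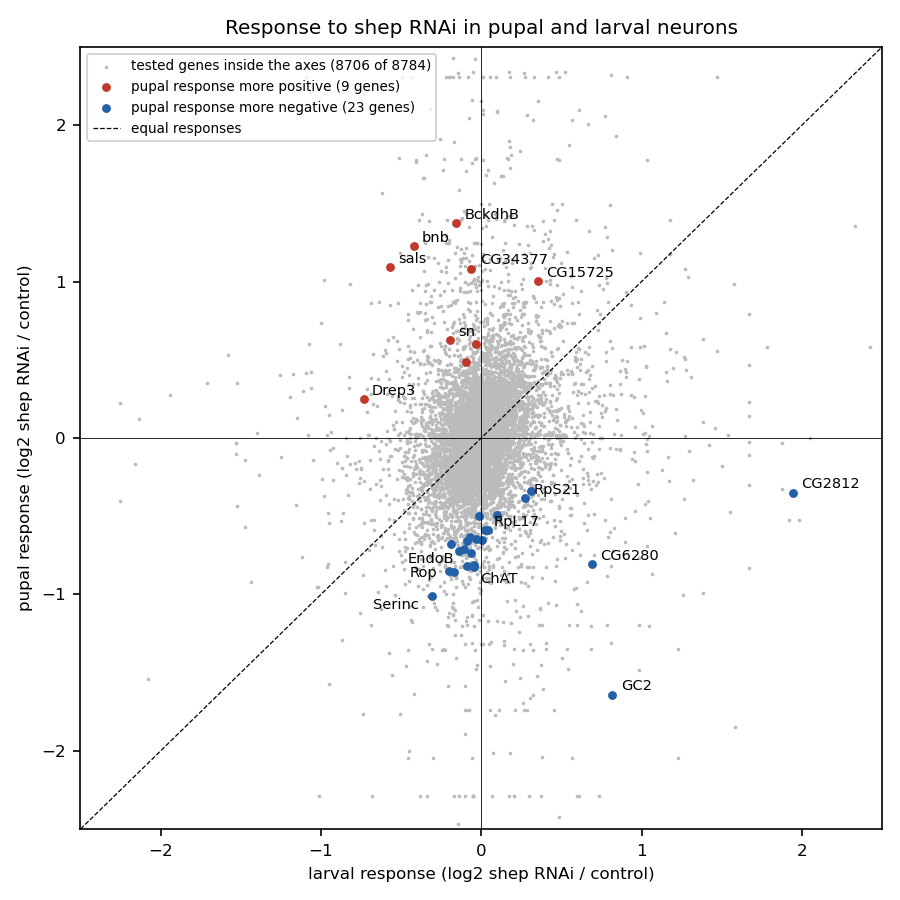
Log2 response to shep RNAi in pupal neurons (vertical axis) against larval neurons (horizontal axis) for the 8706 of 8784 tested genes inside the axes, each point a gene. The 9 genes with a more positive pupal response (red) lie above the dashed line of equal responses and the 23 with a more negative one (blue) below it, most of them close to a larval response of 0.

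ChAT (FBgn0000303, arm 3R from 18705501 to 18732344) encodes choline acetyltransferase, which makes acetylcholine. It had 300.5, 309.7 and 295 CPM in pupal RNAi libraries, against 542, 515 and 530.0 CPM in pupal controls. In larvae it had 30.4, 26.2 and 28.2 CPM in RNAi libraries, against 27.1, 33.4 and 27.2 CPM in controls. The pupal groups were far apart and the larval ones overlapped. ChAT fell by 42.9% on RNAi in pupae, against a larval log2 response of -0.04 (95% interval -0.23 to 0.15), a difference of -0.77 (SE 0.12, edgeR adjusted p = 0.00384). VAChT, the vesicular acetylcholine transporter gene nested in the ChAT locus, shares 606 of the 4011 exonic bases of ChAT (15.1%), so reads there cannot be assigned with certainty. VAChT itself had a difference of -0.45 (SE 0.12) that did not pass (edgeR adjusted p = 0.137).

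VGlut (FBgn0031424, arm 2L from 2400295 to 2410662), the vesicular glutamate transporter gene, had 617, 683 and 666 CPM in pupal RNAi libraries, against 1130.2, 939 and 1025 CPM in pupal controls. Larval libraries had 153, 159 and 141 CPM with RNAi, against 155, 139.5 and 157 CPM in controls. Every pupal RNAi library was below every pupal control, and the larval groups were interleaved. The difference was -0.66 (SE 0.12, edgeR adjusted p = 0.0117). Rop (FBgn0004574, arm 3L from 4136359 to 4138996) encodes the Sec1/Munc18 protein needed for vesicle fusion. Its levels were 649.8, 708 and 728 CPM in pupal RNAi libraries, against 1335, 1224 and 1196 CPM in pupal controls. Larval RNAi libraries had 40.9, 44.3 and 40.7 CPM, against 49.4, 51.2 and 44.3 CPM in larval controls. Every RNAi library lay below every control at both stages, although in larvae the nearest libraries differed by under 0.1 CPM, with a larval response of -0.20 that did not pass the test (edgeR adjusted p = 0.515) and a difference of -0.65 (SE 0.12, edgeR adjusted p = 0.0130).

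EndoB (FBgn0034433, arm 2R from 19307447 to 19310665), the endophilin B gene, had 118, 124 and 116 CPM in pupal RNAi libraries, against 242, 197 and 207 CPM in pupal controls. In larvae it had 11.4, 12.04 and 14.4 CPM with RNAi, against 13.3, 13.8 and 15.6 CPM in controls. The pupal groups were separate and the larval groups overlapped, with a difference of -0.68 (SE 0.14, edgeR adjusted p = 0.0280). fwe, the gene of the vesicle-associated calcium channel flower, averaged 646 ± 44.3 CPM in pupal RNAi and 1001 ± 68.4 CPM in pupal control neurons, and 93.2 ± 4.09 CPM in larval RNAi and 97.7 ± 5.06 CPM in larval control neurons (SD, n = 3 each), a difference of -0.56. The proton pump that acidifies vesicles was represented by the subunit gene VhaSFD (difference -0.61) and the accessory subunit gene VhaAC45RP (difference -0.49). VhaSFD averaged 137 ± 8.04 CPM in pupal RNAi and 224 ± 20.8 CPM in pupal control neurons, and 21.8 ± 1.66 CPM in larval RNAi and 23.5 ± 1.41 CPM in larval control neurons.

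Serinc (FBgn0028399, arm 3L from 16412722 to 16415386), a serine incorporator gene, had 159, 142 and 143 CPM in pupal RNAi libraries, against 295, 319.6 and 282 CPM in pupal controls. In larval RNAi libraries it had 45.9, 45.3 and 44.7 CPM, against 55.6, 57.9 and 55.0 CPM in larval controls. RNAi libraries lay below controls at both stages with no overlap. Serinc fell by 50.4% in pupae, and its larval response of -0.31 on the log2 scale did not pass the test (edgeR adjusted p = 0.0960). The difference was -0.70 (SE 0.11, edgeR adjusted p = 0.00384). Sec71 (FBgn0028538, arm 2L from 13793521 to 13799674) encodes a guanine nucleotide exchange factor of the Sec7 family that acts on Arf GTPases. It had 79.0, 67.1 and 74.6 CPM in pupal RNAi libraries, against 146, 118 and 125 CPM in pupal controls, and in larvae 44.2, 40.7 and 42.1 CPM with RNAi, against 47.5, 46.3 and 41.4 CPM in controls. Only the pupal groups stood apart, with a difference of -0.73 (SE 0.13, edgeR adjusted p = 0.0113).

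The protein phosphatase 1 beta gene flw averaged 187 ± 5.57 CPM in pupal RNAi and 264 ± 19.2 CPM in pupal control neurons, and 41.7 ± 2.55 CPM in larval RNAi and 42.0 ± 0.272 CPM in larval control neurons. Its difference of -0.49 was close to the threshold (edgeR adjusted p = 0.0491). CG6330 (FBgn0039464, arm 3R from 26949692 to 26958491) had 220.4, 220.1 and 235 CPM in pupal RNAi libraries, against 415, 412 and 370.2 CPM in pupal controls. The larval RNAi libraries held 10.02, 8.62 and 8.23 CPM, against 9.49, 9.46 and 8.91 CPM in larval controls. The pupal groups were widely separate and the larval ones overlapped, giving a difference of -0.78 (SE 0.13, edgeR adjusted p = 0.00940). CG43367 had a difference of -0.57, from 127 ± 7.13 CPM in pupal RNAi and 199 ± 9.96 CPM in pupal control neurons against 63.8 ± 2.55 CPM in larval RNAi and 67.8 ± 3.60 CPM in larval control neurons.

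Among called genes, 3 with low levels had the most negative differences. CG6280 (FBgn0033866, arm 2R from 13753964 to 13758971) had 2.37, 2.06 and 2.12 CPM in pupal RNAi libraries, against 3.70, 3.70 and 4.12 CPM in pupal controls. Larval RNAi libraries had 9.18, 8.11 and 8.14 CPM, against 4.37, 6.41 and 5.14 CPM in larval controls. The groups were separate at both stages and in opposite directions, so that the difference of -1.50 passed (SE 0.30, edgeR adjusted p = 0.0201) although neither the pupal response (edgeR adjusted p = 0.0562) nor the larval one (edgeR adjusted p = 0.0530) passed alone. CG2812 had counts of 15, 25 and 16 in pupal RNAi and 28, 21 and 24 in pupal control libraries, and of 30, 24 and 17 in larval RNAi and 10, 5 and 6 in larval control libraries. Its larval rise passed the test (log2 1.95, SE 0.35, edgeR adjusted p = 0.00814), and its difference was -2.30 (SE 0.47). GC2, a mitochondrial glutamate carrier gene, had counts of 8, 4 and 3 in pupal RNAi and 16, 12 and 20 in pupal control libraries, and of 63, 31 and 24 in larval RNAi and 26, 22 and 28 in larval control libraries, for a difference of -2.46 (SE 0.54). In the annotation all exonic bases of CG2812 lie within exons of SERCA, and all those of GC2 within exons of Tango9, on the opposite strand. No source used here gives the strand setting of the counting, so these counts cannot be assigned to CG2812 and GC2 with certainty.

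Genes of the ribosome were less expressed in pupal than in larval neurons, and the fitted response was more negative in pupae for each of the 78 tested. Of 78 cytosolic ribosomal protein genes tested, 7 were called with a negative difference (8.97%, against 0.262% of all tested genes) and 0 with a positive one. At an unadjusted p under 0.05 the difference was negative for 50 and positive for 0. All 78 differences were below 0, with a median of -0.35, against 0.01 over all tested genes. The median response was -0.32 in pupae, where 40 were called lower (4.17% of all tested genes were), and 0.01 in larvae, where 0 were called by edgeR. Ribosomal protein transcripts together held 7258, 7531 and 7707 CPM in pupal RNAi libraries, against 9081, 9753 and 9100.2 CPM in pupal controls. They held 28878, 28090 and 30127 CPM in larval RNAi libraries, against 30577, 28833 and 26860 CPM in larval controls. The pupal groups did not overlap in this sum and the larval ones did.

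The list had been described in these data before, so its direction is not independent evidence. Members of both subunits were alike: 45 large subunit genes had a median difference of -0.32 with 6 called, and 33 small subunit genes a median of -0.35 with 1 called. DESeq2 called 23 members lower, of the 81 it was run on, and limma-voom 6. Over all genes DESeq2 called 95 lower and limma-voom 21. Of the 7 called genes, 1 was still called without larval control replicate 3 (RpL17), 3 without larval RNAi replicate 3, 4 without pupal RNAi replicate 1 or 2, and 2 with all 18 libraries in the fit (RpL17 and RpL28). All 78 were lower in pupal than in larval controls. Near-identical copies and snoRNA genes within ribosomal protein introns make single-gene counts of this family uncertain.

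RpS21 (FBgn0015521, arm 2L from 2856070 to 2857029), a small subunit gene, had 21.8, 18.5 and 23.5 CPM in pupal RNAi libraries, against 27.5, 30.0 and 25.4 CPM in pupal controls. With RNAi, larval libraries had 197, 193 and 208 CPM, against 167, 169 and 159 CPM in larval controls. It was thus below control in every pupal RNAi library and above control in every larval one, although the larval response of 0.27 did not pass (edgeR adjusted p = 0.153). The difference was -0.66 (SE 0.13, edgeR adjusted p = 0.0184). RpL17, a large subunit gene, averaged 53.5 ± 3.60 CPM in pupal RNAi and 80.3 ± 1.64 CPM in pupal control neurons, and 245 ± 3.13 CPM in larval RNAi and 241 ± 13.6 CPM in larval control neurons (difference -0.61, SE 0.11, edgeR adjusted p = 0.0113). RpL28 had 72.6 ± 2.0 CPM in pupal RNAi and 113 ± 5.76 CPM in pupal control neurons, and 430.0 ± 10.5 CPM in larval RNAi and 440.2 ± 37.9 CPM in larval control neurons. RpL41 had 97.4 ± 0.665 CPM in pupal RNAi and 160.4 ± 2.33 CPM in pupal control neurons, and 639.5 ± 21.8 CPM in larval RNAi and 703 ± 46.4 CPM in larval control neurons. The differences were -0.61 for RpL28, -0.58 for RpL41, -0.63 for RpL8, -0.59 for RpL5 and -0.64 for RpL37A. An antisense RNA covers 19.7% of the exonic bases of RpL37A.

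Of 34 translation factor genes 1 was called, eIF3i, with 1 positive and 2 negative at an unadjusted p under 0.05, and the list median was -0.08. eIF3i (FBgn0015834, arm 2L from 4966367 to 4967775), a subunit of initiation factor 3, had 27.3, 31.7 and 27.2 CPM in pupal RNAi libraries, against 45.5, 53.5 and 44.6 CPM in pupal controls. In larval RNAi libraries it had 85.7, 91.2 and 98.4 CPM, against 103, 90.1 and 94.2 CPM in larval controls. The pupal groups were separate, the larval ones overlapped, and the difference was -0.67 (SE 0.13, edgeR adjusted p = 0.0201). Mitochondrial ribosomal protein genes had a median difference of -0.02 over 69 genes with symbols beginning in mRp, of which 35 were below 0 and 0 were called by edgeR; these genes were looked at after the cytosolic ones had been seen.

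**Figure D2:**
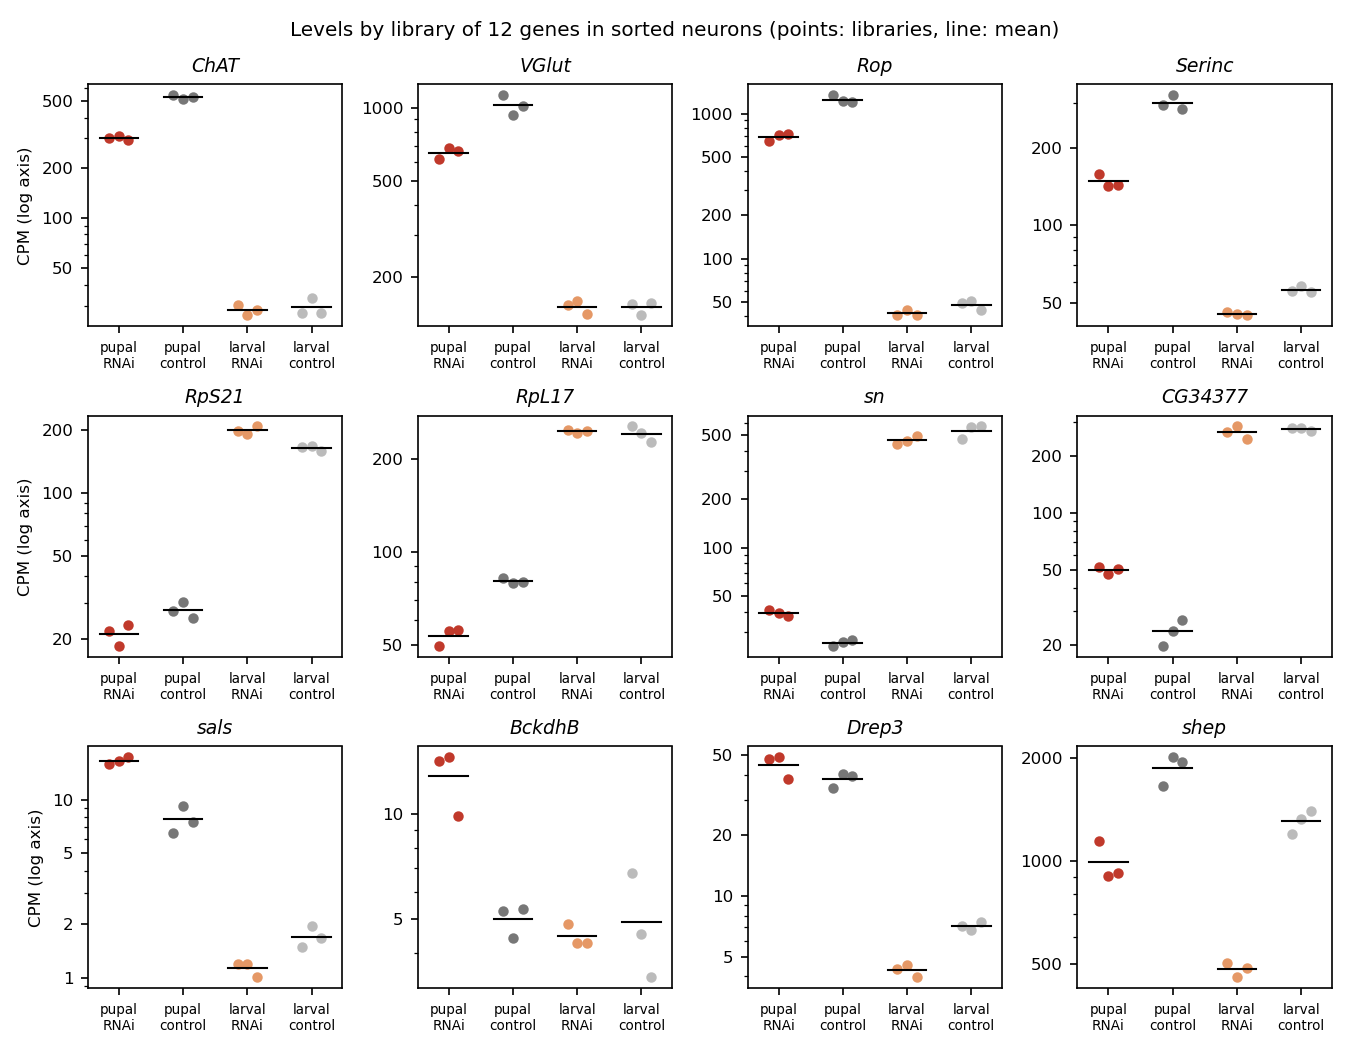
Level in CPM (log axis) of 12 genes in each neuron library, with a line at the group mean (3 libraries a group). ChAT, VGlut, Rop and Serinc were lower in pupal RNAi than in pupal control libraries and higher in pupal than in larval controls, RpS21 and RpL17 were lower in pupal RNAi and higher in larval controls, and sn and CG34377 were higher in pupal RNAi and higher in larval controls.

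Of the genes with a positive difference, sn and sals are on the list of actin regulators. sn (FBgn0003447, arm X from 7964024 to 7986601) encodes fascin, which bundles actin filaments. It had 41.2, 39.4 and 37.6 CPM in pupal RNAi libraries, against 24.3, 25.7 and 26.6 CPM in pupal controls. The larval RNAi libraries held 441, 462 and 494 CPM, against 474, 559.8 and 568 CPM in larval controls. sn rose in pupae (log2 0.63) with no overlap of groups, while the larval groups overlapped (log2 -0.20, edgeR adjusted p = 0.434). The difference was 0.82 (SE 0.13, edgeR adjusted p = 0.00384). sals (FBgn0051374, arm 3R from 11437547 to 11451791), whose product acts at actin pointed ends and sets sarcomere length in muscle, had 16.0, 16.61 and 17.3 CPM in pupal RNAi libraries, against 6.543, 9.25 and 7.55 CPM in pupal controls. In larvae it had 1.19, 1.20 and 1.01 CPM with RNAi, against 1.496, 1.95 and 1.67 CPM in controls. Pupal RNAi libraries all lay above pupal controls (log2 1.09), and its larval response of -0.57 did not pass (edgeR adjusted p = 0.546), for a difference of 1.66 (SE 0.31, edgeR adjusted p = 0.0117).

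Of 53 actin regulator genes tested, 2 were called with a positive difference (3.77%, against 0.102% of all tested genes) and 0 with a negative one. The list was chosen with earlier results of these data known, so this share is not independent evidence. At an unadjusted p under 0.05 the numbers were 10 and 0, and 6 members were called higher in pupae (11.3%, against 3.48% of all tested genes). The median difference was 0.10, against 0.01 over all tested genes, with 34% of members below 0, and was 0.16 without pupal control replicate 2 and 0.17 without pupal control replicate 3. Further members were Gel, the gelsolin gene (0.64, edgeR adjusted p = 0.200), and sqh, the regulatory light chain gene of non-muscle myosin (0.43, edgeR adjusted p = 0.227), whose differences did not pass. Among 11 tested muscle markers 0 were called by edgeR, DESeq2 or limma-voom, and an unadjusted p under 0.05 was reached by 1 in each direction. The summed level of all 17 matched muscle markers, tested or not, was 480.4 to 572 CPM in pupal RNAi and 478 to 527 CPM in pupal control libraries. In larvae it was 149.9 to 161 CPM in RNAi and 142 to 158 CPM in control libraries. The median difference of the tested muscle markers was 0.39, with a median SE of 0.70 and 18.2% of them below 0. Their median response was 0.37 in pupae and -0.01 in larvae. Mhc, the muscle myosin heavy chain gene, was at 0.624 CPM or less in pupal libraries, so other members made up the pupal sum. Of the 11 tested muscle markers, 1 was higher and 8 were lower in pupal than in larval controls. The part of muscle RNA in these values was not tested.

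CG34377 (FBgn0263117, arm 3R from 22308663 to 22324094) had the smallest p of all genes. It had 51.7, 47.5 and 50.6 CPM in pupal RNAi libraries, against 19.6, 23.8 and 27.2 CPM in pupal controls. Larval RNAi libraries had 266, 286 and 246 CPM, against 281, 281 and 270.2 CPM in larval controls. It rose by 112% in pupae from a level far below the larval one, and the larval groups overlapped (difference 1.14, SE 0.13, edgeR adjusted p = 8.72e-05). CG42232 (FBgn0250754, arm 3R from 16458280 to 16469663) had 65.4, 57.1 and 64.6 CPM in pupal RNAi libraries, against 47.4, 41.7 and 44.4 CPM in pupal controls, and 308, 339.6 and 346 CPM in larval RNAi libraries, against 334, 361 and 368 CPM in larval controls. Its pupal groups were separate and its larval groups overlapped, with a difference of 0.58 (SE 0.12, edgeR adjusted p = 0.0201). CG15725 (FBgn0030417, arm X from 12705854 to 12708841) had 157, 162 and 154 CPM in pupal RNAi libraries, against 70.0, 81.8 and 84.1 CPM in pupal controls, and 18.8, 17.4 and 19.4 CPM in larval RNAi libraries, against 14.67, 14.9 and 13.98 CPM in larval controls. RNAi libraries lay above controls at both stages. The log2 response was 1.01 in pupae and 0.35 in larvae, with a difference of 0.65 (SE 0.13, edgeR adjusted p = 0.0162).

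bnb (FBgn0001090, arm X from 18794246 to 18797687) had 4.24, 5.08 and 4.94 CPM in pupal RNAi libraries, against 1.99, 2.13 and 1.92 CPM in pupal controls. With RNAi, larval libraries had 4.62, 4.95 and 4.53 CPM, against 5.41, 6.80 and 6.81 CPM in larval controls. The groups were separate at both stages, higher on RNAi in pupae and lower in larvae, where the response did not pass (edgeR adjusted p = 0.418). The difference was 1.65 (SE 0.30, edgeR adjusted p = 0.0113). bnb is also on the list of glial markers, whose other 11 tested members had no called difference. That list summed to 658 to 846 CPM in pupal RNAi and 869 to 955 CPM in pupal control libraries, and to 238 to 248 CPM in larval RNAi and 199.5 to 253 CPM in larval control libraries. Hemocyte markers summed to 354 to 367 CPM in pupal RNAi and 396 to 439.8 CPM in pupal control libraries, and to 57.5 to 65.6 CPM in larval RNAi and 54.4 to 63.6 CPM in larval control libraries. Of that list Hml and NimC1 were at 0.275 CPM or less in pupae, so other members made up the pupal sum. Of 8 tested hemocyte markers, 3 were higher and 1 was lower in pupal than in larval controls. The part of such cells in the stage differences was not tested, and in bulk samples fewer cells of a type and less RNA per cell cannot be told apart.

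BckdhB (FBgn0039993, arm 2R from 1590484 to 1596457) encodes a subunit of the dehydrogenase that breaks down branched-chain amino acids. It had 14.2, 14.55 and 9.88 CPM in pupal RNAi libraries, against 5.26, 4.41 and 5.36 CPM in pupal controls, and 4.83, 4.27 and 4.28 CPM in larval RNAi libraries, against 6.79, 4.53 and 3.40 CPM in larval controls. Levels at the 2 stages were alike in controls, and only pupal RNAi neurons stood apart (difference 1.53, SE 0.31, edgeR adjusted p = 0.0201). GM130 (FBgn0034697, arm 2R from 22124567 to 22127502), a Golgi matrix protein gene, had 53.5, 49.4 and 52.05 CPM in pupal RNAi libraries, against 35.6, 33.0 and 33.7 CPM in pupal controls, and 30.5, 33.5 and 31.1 CPM in larval RNAi libraries, against 36.1, 29.2 and 31.7 CPM in larval controls. Again controls of both stages were close to each other and only the pupal RNAi group was higher (difference 0.63, SE 0.14, edgeR adjusted p = 0.0307). Drep3 (FBgn0028407, arm 2R from 12055089 to 12062866), of the CIDE-domain family related to DNA fragmentation factors, had 47.8, 48.7 and 38.3 CPM in pupal RNAi libraries, against 34.4, 40.1 and 39.4 CPM in pupal controls, and 4.34, 4.52 and 3.95 CPM in larval RNAi libraries, against 7.08, 6.80 and 7.46 CPM in larval controls. Here the larval groups were separate and the pupal ones overlapped: Drep3 fell in larvae (log2 -0.73, SE 0.15, edgeR adjusted p = 0.0265), its pupal response of 0.25 did not pass, and the difference was 0.98 (SE 0.19, edgeR adjusted p = 0.0131). CG44314 shares 23.2% of the exonic bases of Drep3 on the same strand.

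The number of calls depended on single libraries. Leaving out larval control replicate 1 gave 89 and leaving out pupal control replicate 2 gave 51. Leaving out pupal RNAi replicate 1 gave 18, larval RNAi replicate 2 gave 15 and larval control replicate 3 gave 13. Called in all 12 fits without 1 library were 9 genes, namely ChAT, Serinc, Sec71, RpL17, CG6330, sn, CG34377, bnb and sals. With DESeq2 116 genes were called, 25 of them among the 32, while bnb, sals, BckdhB, Drep3, CG6280, CG2812 and GC2 were not called. Of the 116, 21 were positive and 95 negative, so list counts by DESeq2 stand against more calls than those by edgeR.

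The lists of synaptic genes held 4 of the calls, against the 0.262% of all tested genes called with a negative difference. At an unadjusted p under 0.05 their counts, and those of the other lists, stand against 5.36% negative and 5.08% positive over all tested genes. Of 30 vesicle fusion genes 1 was called (Rop), with 6 negative and 1 positive at an unadjusted p under 0.05 and a median difference of -0.14, which was -0.09 without pupal control replicate 2. comt, the NSF gene whose product takes SNARE complexes apart, averaged 585 ± 29.6 CPM in pupal RNAi and 915 ± 54.5 CPM in pupal control neurons, and 28.0 ± 0.370 CPM in larval RNAi and 32.0 ± 1.78 CPM in larval control neurons, and its difference of -0.45 did not pass (edgeR adjusted p = 0.110). Of 19 genes listed for vesicle endocytosis 1 was called, with 8 negative and 0 positive at an unadjusted p under 0.05 and a median of -0.22. The called gene was EndoB, the endophilin B gene, whose part in synaptic vesicle endocytosis was not tested. The scaffold gene Dap160 (-0.49, edgeR adjusted p = 0.0546), the synaptojanin gene Synj (-0.40) and the dynamin gene shi (-0.47, edgeR adjusted p = 0.128 for both) came next. Of 21 genes for transmitter synthesis and transport 2 were called (ChAT and VGlut), with 3 positive and 3 negative at an unadjusted p under 0.05 and a median of -0.12, which was -0.02 without larval control replicate 1 and -0.21 without pupal control replicate 1. SerT, the serotonin transporter gene, had a positive difference that did not pass (1.17, edgeR adjusted p = 0.284). Of 40 transmitter receptor genes 0 were called by edgeR or limma-voom and 1 by DESeq2, with 1 positive and 1 negative at an unadjusted p under 0.05, below the shares over all genes. The receptor median of 0.05 had no stable sign: it was -0.03 without pupal control replicate 1, -0.0047 without larval control replicate 3 and 0.12 without larval control replicate 1.

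Peptide and energy genes had negative medians without calls. Of 18 neuropeptide precursor genes tested, 0 were called by edgeR or limma-voom and 1 by DESeq2, with 5 negative and 0 positive at an unadjusted p under 0.05. Their median difference was -0.64, from -0.48 in pupae and 0.45 in larvae. Nplp1, a peptide precursor gene, averaged 63.7 ± 3.46 CPM in pupal RNAi and 124 ± 12.2 CPM in pupal control neurons, and 7.77 ± 1.29 CPM in larval RNAi and 10.1 ± 0.784 CPM in larval control neurons (difference -0.60, edgeR adjusted p = 0.128). The larval sum of the list was only 27.5 to 34.4 CPM with RNAi and 27.6 to 30.9 CPM in controls, so that its larval medians rest on low counts. Of 66 nuclear oxidative phosphorylation genes 0 were called by edgeR or limma-voom and 1 by DESeq2, with 12 negative and 0 positive at an unadjusted p under 0.05 and a median of -0.17. UQCR-C1, a complex III gene, was nearest to the threshold (-0.52, SE 0.12, edgeR adjusted p = 0.0526), with 177 ± 6.45 CPM in pupal RNAi and 272 ± 28.4 CPM in pupal control neurons, and 48.8 ± 1.88 CPM in larval RNAi and 52.4 ± 3.53 CPM in larval control neurons.

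Of 15 genes of the mitochondrial genome 0 were called by edgeR or limma-voom and 3 by DESeq2, with 4 negative and 0 positive at an unadjusted p under 0.05. The median difference was -0.51, and here the larval side contributed, with a median response of 0.34 in larvae and -0.13 in pupae. mt:ATPase6, an ATP synthase subunit gene, had 326, 408 and 454 CPM in pupal RNAi libraries, against 426, 386 and 371 CPM in pupal controls. Larval RNAi libraries had 139.5, 150.2 and 169 CPM, against 104.5, 103 and 109 CPM in larval controls. The pupal groups overlapped and the larval ones did not, with a larval response of 0.53 that passed (edgeR adjusted p = 0.0103) and a difference of -0.53 that did not (edgeR adjusted p = 0.116). Mitochondrial genes took 1.53% of counts in pupal RNAi replicate 1 and 2.13% or more in the other pupal libraries, and without that library the list median was -0.26. Its part in the result was not tested.

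Temporal identity and RNA-binding genes had medians above 0, again without calls. Of 19 temporal identity genes 0 were called by edgeR or limma-voom and 2 by DESeq2, with 5 positive and 2 negative at an unadjusted p under 0.05 and a median of 0.16, which was 0.27 without pupal RNAi replicate 3. Eip93F, an ecdysone-induced transcription factor gene of late neuronal development, had 576, 509 and 511 CPM in pupal RNAi libraries, against 314, 409 and 391 CPM in pupal controls, and 743, 763 and 736 CPM in larval RNAi libraries, against 734, 732 and 792 CPM in larval controls. br, another ecdysone-induced factor gene, had 1148, 914 and 984 CPM in pupal RNAi libraries, against 484, 689 and 592 CPM in pupal controls, and 5431, 5537 and 5948 CPM in larval RNAi libraries, against 4529, 5467 and 5384 CPM in larval controls. Both were separate in pupae and overlapped in larvae, but the differences of 0.53 for Eip93F (edgeR adjusted p = 0.0811) and 0.65 for br (edgeR adjusted p = 0.114) did not pass. Of 37 neuronal RNA-binding protein genes 0 were called by edgeR or limma-voom and 2 by DESeq2, with 6 positive and 2 negative at an unadjusted p under 0.05 and a median of 0.15, which was 0.05 without pupal control replicate 1. One of the 6 was the targeted gene shep.

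Cell cycle genes, of which 39 of 41 were lower in pupal controls, had a median of 0.17 (0.26 without pupal control replicate 3) with 0 called by edgeR, DESeq2 or limma-voom, and with 4 positive and 2 negative at an unadjusted p under 0.05. The median SE of their differences was 0.55, against 0.22 over all tested genes. BubR1, a spindle checkpoint gene, had 14.95 ± 1.20 CPM in pupal RNAi and 10.1 ± 0.829 CPM in pupal control neurons, and 20.9 ± 0.969 CPM in larval RNAi and 22.4 ± 4.62 CPM in larval control neurons (difference 0.68, edgeR adjusted p = 0.178). Of 15 neuroblast markers 0 were called by edgeR, DESeq2 or limma-voom, with 2 positive and 1 negative at an unadjusted p under 0.05. The sum of all 16 matched neuroblast markers, tested or not, was 6964 to 8292 CPM in pupal RNAi and 4417 to 5776 CPM in pupal control libraries. In larvae it was 27706 to 34122 CPM in RNAi and 26843 to 36940 CPM in control libraries. Most of this sum was pros (6054 to 7516 CPM in pupal RNAi and 3791 to 5121 CPM in pupal control libraries), a gene that neurons also express. The part of precursors in the stage differences was not tested. Of 29 heat shock and stress genes 0 were called by edgeR or limma-voom and 1 by DESeq2, with 10 negative and 2 positive at an unadjusted p under 0.05 and a median of -0.21, which was -0.33 without pupal control replicate 1.

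**Figure D3:**
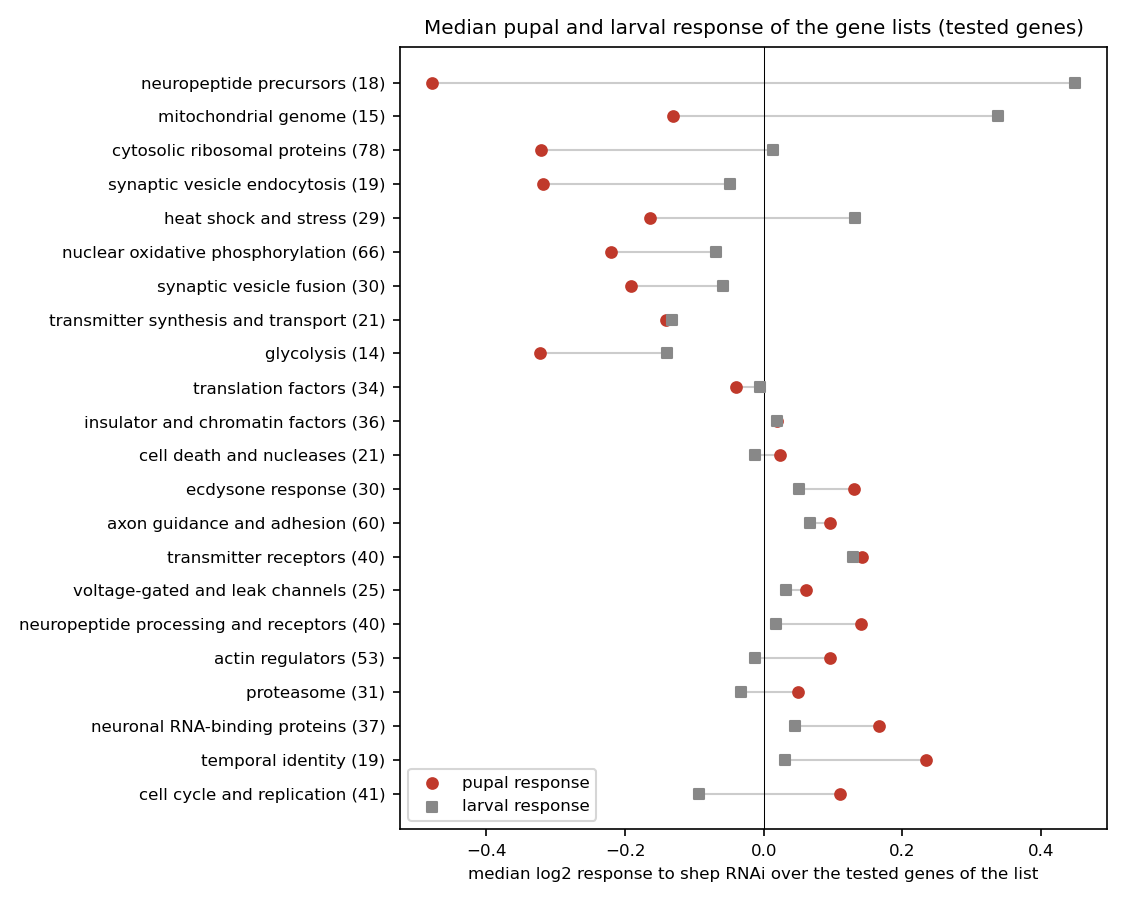
Median log2 response to shep RNAi over the tested genes of each of the 22 lists with at least 10 tested genes, lists of cell type markers left out, in pupal neurons (red circles) and larval neurons (grey squares), with the number of tested genes in brackets and the most negative median difference on top. Among these 22, neuropeptide precursors, genes of the mitochondrial genome and ribosomal protein genes had the most negative median differences (-0.64, -0.51 and -0.35), and cell cycle genes the most positive one (0.17). Single genes were imprecise in the lists of neuropeptide precursors and cell cycle genes, with a median SE of 0.55 in each.

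Whether the stage difference followed the level of a gene at each stage was examined by grouping genes by their control levels. Control libraries enter both the level and the response, so their noise pushes the difference of genes high in pupal controls downward. The same grouping was therefore repeated with levels averaged over RNAi and control libraries. Of genes expressed in one stage only, few or none were called: 133 genes had at least 5 CPM in pupal and under 1 CPM in larval controls, 257 the reverse, and 0 of either group passed edgeR's test. Without the filter on low counts edgeR called 3 of the first (1 positive, 2 negative) and 0 of the second. DESeq2 called 1 of the first and 0 of the second and limma-voom 0 of both, and an unadjusted p under 0.05 was reached by 15 and 27. For such genes the difference was imprecise. Its median SE was 0.54 over the 133 and 0.70 over the 257, against 0.18 over the 7027 genes at 1 CPM or more in both.

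Among genes at 1 CPM or more in the controls of both stages, calls made up a larger share where levels differed between stages, a difference that was not tested. With pupal controls at least 2-fold higher than larval ones, 15 of 1948 genes were called (0.770%), of which 3 were positive and 12 negative. With larval controls at least 2-fold higher, 11 of 1789 were called (0.615%), of which 4 were positive and 7 negative, and these 7 were eIF3i and 6 ribosomal protein genes. Where levels were within 2-fold, 5 of 3290 were called (0.152%). Of the other 1367 genes 1 was called, CG2812. These shares were close to those with levels from all libraries (0.823%, 0.620% and 0.148%).

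Called genes of either sign were found among those higher in pupae and among those higher in larvae. This split used only which control mean was higher, by however little. Of the 9 genes with a more positive pupal response, 5 had the higher control level in pupae (sals, Drep3, CG15725, BckdhB and GM130) and 4 in larvae (sn, bnb, CG34377 and CG42232). Control levels of BckdhB and GM130 were close at the 2 stages. Among genes within 2-fold between stages, 2 positive and 3 negative differences were called. Of the 23 with a more negative one, 14 had the higher control level in pupae (ChAT, VGlut, Rop, EndoB, fwe, VhaSFD, VhaAC45RP, Serinc, Sec71, flw, GC2, CG2812, CG6330 and CG43367). The other 9 were higher in larvae (eIF3i, CG6280 and the 7 ribosomal protein genes). By group means, some called genes lay nearer to their larval control level in pupal RNAi than in pupal control neurons. These were sn, bnb, CG34377, CG42232, ChAT, VGlut, Rop, EndoB, fwe, VhaSFD, VhaAC45RP, Serinc, Sec71, flw, CG6330 and CG43367. The 7 ribosomal protein genes, eIF3i, CG6280, sals, CG15725, BckdhB, GM130 and Drep3 lay further from it. Such positions largely restate the signs of the pupal response and of the control ratio, and noise in the pupal controls enters both. No share over all tested genes is given, and a shift towards a larval state was not tested. GC2 and CG2812 are left out here because their counts cannot be assigned with certainty.

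Over all genes a shallow gradient ran along the stage difference in level. In 10 bins of about 878 genes each, ordered by the log2 ratio of pupal over larval control level, the median difference in response was 0.18 in the bin highest in larvae and -0.08 in the bin highest in pupae. In the bin highest in larvae the median response was 0.16 in pupae and -0.02 in larvae. In the ninth bin it was -0.07 in pupae and -0.0029 in larvae, and in the bin highest in pupae -0.01 in pupae and 0.05 in larvae, so that there the larval median was the one further from 0. With bins from all libraries the gradient was smaller, with median differences of 0.11 and -0.04 in the outer bins. The class of genes expressed only in larvae had a median difference of 0.15 with levels from controls and -0.02 with levels from all libraries, so its sign rested on that choice. From controls it was 0.06 without larval control replicate 1, 0.09 without pupal RNAi replicate 2, 0.30 without pupal control replicate 3 and 0.33 without pupal control replicate 1.

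**Figure D4:**
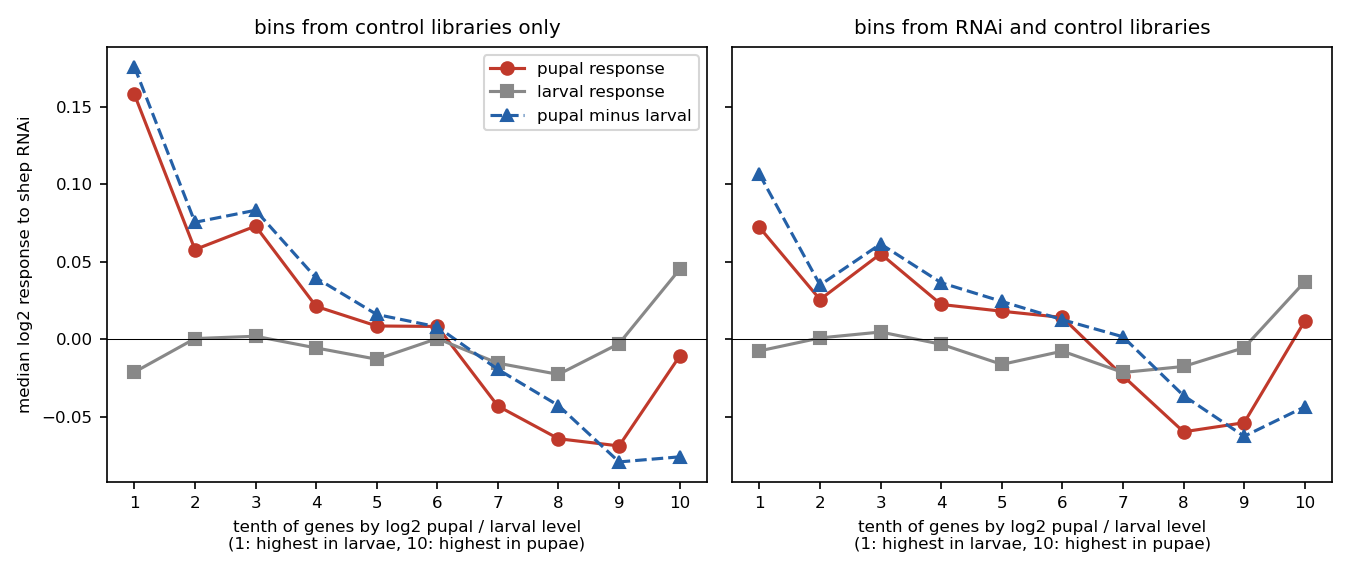
Median log2 response to shep RNAi over the genes in each of 10 bins, ordered along the horizontal axis by the log2 ratio of pupal to larval level, with levels taken from control libraries (left) or from RNAi and control libraries (right). The pupal minus larval difference was -0.08 in the last and 0.18 in the first bin on the left, and -0.04 in the last and 0.11 in the first bin on the right, and the larval median was highest in the last bin (0.05 on the left).

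Pupal calls made up a larger share of the genes high in pupae. By edgeR, 16.4% of genes were called in the pupal comparison in the bin highest in pupae and 12.6% in the next, against 4.32% to 7.17% in the other 8 bins. In the larval comparison each bin held 1 to 6 calls. A higher level also gave a smaller error: the median SE of the pupal response was 0.10 in the genes at least 2-fold higher in pupae, 0.14 where levels were within 2-fold and 0.19 in the genes at least 2-fold higher in larvae.

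Genes called in pupae were followed into the larval libraries. Larval libraries enter no pupal fold change, but they share the filter and the estimate of dispersion with it. Of the 672 genes, 538 (80.1%) had a larval response of the same sign, against 58.9% of the genes not called in pupae. In larvae 12 of them were called in the same direction, and at an unadjusted p under 0.05 there were 146 in the same and 12 in the opposite direction. The larval response was smaller in size for 651 of the 672. Along the pupal direction its median was 0.10, against a median absolute response of 0.45 in pupae, although the median SE was similar in both (0.10 for rises and falls in larvae, 0.11 for rises and 0.10 for falls in pupae). The pupal values are those that chose the genes and are inflated by that choice.

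The larval response of these genes was small also where their larval level was high. Of the 672, 272 had a larval control level at least as high as the pupal one, and their larval median along the pupal direction was 0.08 with a median SE of 0.09. The 400 with a lower larval level had a median of 0.12 with a median SE of 0.11. The first group held 12 and the second 17 of the genes called in the stage difference. Of the 32 genes called in larvae, 27 had the same sign in pupae, 12 were called there in the same direction, and 2 were called in the stage difference (CG2812 and Drep3).

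Calls were spread over the large arms, against 0.364% called of all tested genes. Arm 2L held 7 of 1518 tested genes, 2R 7 of 1697, 3L 6 of 1738, 3R 7 of 2095 and X 5 of 1504. Chromosome 4 held 0 of only 91 tested genes. All 7 calls on 2L and all 6 on 3L were negative, and 2R, 3R and X had 3 positive calls each. Of all 32 calls 23 were negative, and differences between arms were not tested.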

How the data were processed

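The deposited values were raw whole-number counts per gene for 18 libraries. Per the submitters' processing notes, the authors used cutadapt 1.10, HISAT2 2.0.4, featureCounts 1.5.0-p3 and the dm6 genome; strand setting and multi-mapping rules are not given in the sources used here. Libraries were made from total RNA with a NuGEN Ovation kit, per the labels' protocols. Ensembl release 115 (BDGP6.54, the dm6 sequence) gave symbols and coordinates for 17210 genes.

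The 12 neuron libraries were fitted together in R 4.3.3 with edgeR 4.0.16 (filterByExpr, TMM, robust quasi-likelihood, group means, 8 residual degrees of freedom). Tests were 2-sided and calls were made at a Benjamini-Hochberg adjusted p under 0.05 over all tested genes; 95% intervals are for single genes. SEs were derived from the test statistic. CPM are counts scaled to 1e+06 on TMM-adjusted library sizes. Steps were tested on simulated data. Alternatives used DESeq2 1.42.0, limma 3.58.1 (voom), other filters and scalings, and each library left out. Figures were drawn with matplotlib 3.10.9 and pandas 2.3.3 under Python 3.11.15.

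The comparison, the 31 gene lists and the naming rule were chosen with earlier results of these data known. All called genes are named, with every library's value for those with the 10 largest differences in each direction and at least 5 CPM in a group mean; shep, daw, Dcr-2, elav and repo were added, as were up to 4 members of smallest p of each list discussed. In the lists 23 entries matched by synonym and 34 matched no gene. Same-numbered replicates did not deviate together (correlations -0.106 to 0.159), so no pairing was used. Replicates of every group differed by more than counting noise.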

Additional observations from a re-analysis of the deposited data

Results flagged for a closer look

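The 32 genes whose pupal and larval responses differed by the test of the difference itself (edgeR adjusted p under 0.05) have these log2 differences, pupal minus larval. The positive ones were sals 1.66, bnb 1.65, BckdhB 1.53, CG34377 1.14, Drep3 0.98, sn 0.82, CG15725 0.65, GM130 0.63 and CG42232 0.58. The negative ones among synaptic, membrane and signalling genes were ChAT -0.77, Sec71 -0.73, Serinc -0.70, EndoB -0.68, VGlut -0.66, Rop -0.65, VhaSFD -0.61, fwe -0.56, VhaAC45RP -0.49 and flw -0.49. Among genes of translation they were eIF3i -0.67, RpS21 -0.66, RpL37A -0.64, RpL8 -0.63, RpL17 -0.61, RpL28 -0.61, RpL5 -0.59 and RpL41 -0.58. The others were GC2 -2.46, CG2812 -2.30, CG6280 -1.50, CG6330 -0.78 and CG43367 -0.57.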

How the results depend on the processing

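Against 32 calls in the fit as described, 102 genes were called without a filter on low counts (30 positive, 72 negative), 116 with DESeq2 (21 positive, 95 negative), 5 at an adjusted p under 0.01 and 7 with a minimum of 1 on the log2 scale; fitting all 18 libraries gave 37, of which 14 were positive. Over fits without 1 library the count ran from 13 to 89, the positive ones from 6 to 41 and the negative ones from 7 to 48. Other settings gave 30 to 39, and removal of mitochondrial and rRNA genes (33) and TMM within each stage (36), both added after seeing the data, kept all 32 genes. With replicate number as a block 31 were called, 30 of them shared, with flw and VhaAC45RP lost; the numbers do not pair the samples (3 of 18 correlations over 0.1). The median difference of all genes was -0.041 without a filter and -0.040 with DESeq2. Class medians moved to 0.128 for pupal-only and -0.111 for remaining genes (1 CPM in both controls), to -0.090 for genes higher in pupae, -0.023 for similar and -0.139 for remaining genes (no filter), to -0.186 for remaining genes (DESeq2), and to -0.019 for larval-only genes (levels from all libraries), which ran from 0.057 to 0.332 without 1 library. Heat shock genes ran from -0.326 to -0.183 without 1 library. The cause of these changes was not tested. Among single named genes no direction reversed where the gene was called in the fit as described or under the other setting. Changes of sign in genes called in neither were not counted. Under some setting 142 values lost and 57 gained the call. The planned look at promoter start motifs was not run. Depth limits genes under 1 CPM at either stage.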

Other observations

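Of 18 genes with symbols beginning in Vha, which encode subunits of the vacuolar proton pump and were chosen after their values were seen, all 18 had a difference below 0, from -0.61 to -0.02 with a median of -0.33. The difference was called for VhaSFD and VhaAC45RP (0.262% of all tested genes were called with a negative difference). In the pupal comparison 11 were called lower (4.17% of all tested genes were), and in the larval one 0 were called by edgeR. Of 14 glycolysis genes 0 were called by edgeR or limma-voom and 1 by DESeq2 in the difference, with 2 negative and 0 positive at an unadjusted p under 0.05; their median response was -0.32 in pupae and -0.14 in larvae. Of 36 insulator and chromatin factor genes 0 were called by edgeR, DESeq2 or limma-voom, with 4 positive and 1 negative at an unadjusted p under 0.05 and a median difference of 0.02. Of 31 proteasome genes 0 were called by the same 3 tools, with 5 positive and 1 negative at an unadjusted p under 0.05 and a median of 0.12. Of 60 axon guidance and adhesion genes 0 were called by edgeR, 4 by DESeq2 (2 in each direction) and 1 by limma-voom, with 6 positive and 3 negative at an unadjusted p under 0.05 and a median of 0.03. Over all tested genes 5.08% were positive and 5.36% negative at that unadjusted p.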
